A study of Mus musculus with 20 samples.

Results

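Transcript levels in mouse liver 12 h after partial hepatectomy were compared with those at 6 h, in 4 of the 20 libraries of an RNA sequencing series. Partial hepatectomy (PHx) was the surgical removal of 70% of the liver, after which the remnant regrows. All libraries named here came from C57BL/6 mice, and the animals' age is not given in the sources used here. The 6 h and 12 h groups held 2 libraries each, replicate 1 from a first submission and replicate 2 from a second. A reference of regrown liver was formed from 4 libraries taken 14 d and 21 d after the same operation, 2 per time. The labels name primary hepatocytes for replicate 1 and liver alone for replicate 2, describe hepatocytes as freshly isolated, and do not say how pure the cells were or whether replicates were separate animals. P-values therefore measure only the spread between these libraries. Of 54532 genes in the table, 10467 were members by the rule of at least 1 FPKM (a level scaled to exon length and library depth) in 2 or more of the 4 libraries. The second highest of the 4 values was 1.001 for the gene just inside this limit and 0.998 for the one just outside, and 14609 genes outside had some reads.

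After hepatectomy, hepatocytes leave quiescence in a fixed order. Immediate-early transcription factors such as the AP-1 proteins and Myc are induced first, together with the interleukin-6 (IL-6), JAK and STAT3 pathway that drives acute-phase protein synthesis and its own SOCS inhibitors. Fat then accumulates in hepatocytes, secretory and metabolic programmes are adjusted, and DNA synthesis begins only later. The interval between 6 h and 12 h lies in the priming phase, before S phase in the mouse.

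The 4 libraries held 17.3 and 19.6 M reads in replicate 1 (6 h and 12 h) and 41.03 and 41.4 M in replicate 2, as recovered from the FPKM steps. Rank correlation across genes was 0.807 between the 6 h libraries and 0.865 between the 12 h libraries, and 0.847 and 0.916 between times within replicates 1 and 2. Libraries of the same submission were therefore closer than those of the same time for replicate 2, and differences are given within each replicate number as well as over both. The summed level of 10 hepatocyte markers was 22146 to 38167 FPKM in the 4 libraries and 40332 to 75377 in regrown liver. The Y-linked gene Ddx3y was at 12.3 to 21.4 FPKM and Xist at no more than 0.14 FPKM in all 8 libraries used, so these did not differ in sex. Time after surgery and time of day cannot be told apart.

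Few single genes passed the test between 12 h and 6 h. With limma, at an adjusted p under 0.05 and a log2 difference of at least 1, 1 gene was higher at 12 h (0.00955% of tested genes) and 7 were lower (0.0669%). A fit with the replicate number, and thus the submission, as a block called 0 genes higher and 0 lower (789 at an unadjusted p under 0.05). At an unadjusted p under 0.05 there were 970 genes, 407 higher and 563 lower. The higher share of these was 41.96%, and it was 74.46% with libraries rescaled to the same FPKM sum and 21.38% with that sum taken without mitochondrial genes. The libraries of both times did not overlap in 1533 genes higher at 12 h (14.6%) and 1474 lower (14.1%), and the median difference over all tested genes was 0.02. Against regrown liver, 1172 genes were higher (11.2%) and 960 lower (9.17%) at 6 h, and 588 were higher (5.62%) and 574 lower (5.48%) at 12 h. These comparisons share the regrown libraries, so each is given with its own values. No alternative setting called more than 5 genes higher and 39 lower at 12 h, both without 6 h replicate 2. Leaving out 12 h replicate 2 gave no call in either direction (1165 genes at an unadjusted p under 0.05). Leaving out 12 h replicate 1 gave 1 higher and none lower, and leaving out 6 h replicate 1 gave 17 lower.

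Genes were sorted by these contrasts into 3 classes. A faded gene differed from regrown liver at 6 h and had moved back by 12 h, a persisting gene differed the same way at both times, and a started gene differed first at 12 h. There were 7 faded genes (0.0669%), 975 persisting genes (463 higher than regrown liver, 4.42%, and 512 lower, 4.89%) and 1 started gene (0.00955%). A gene that was called at 6 h but neither faded nor persisting had no call at 12 h and no call between the times, and its course was not resolved. With the 6 h and 12 h groups set against separate late times the persisting genes numbered 727 (14 d for 6 h, 21 d for 12 h) or 586 (the reverse), so that no reference library was shared. Without 12 h replicate 2 they numbered 554.

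**Figure D1:**
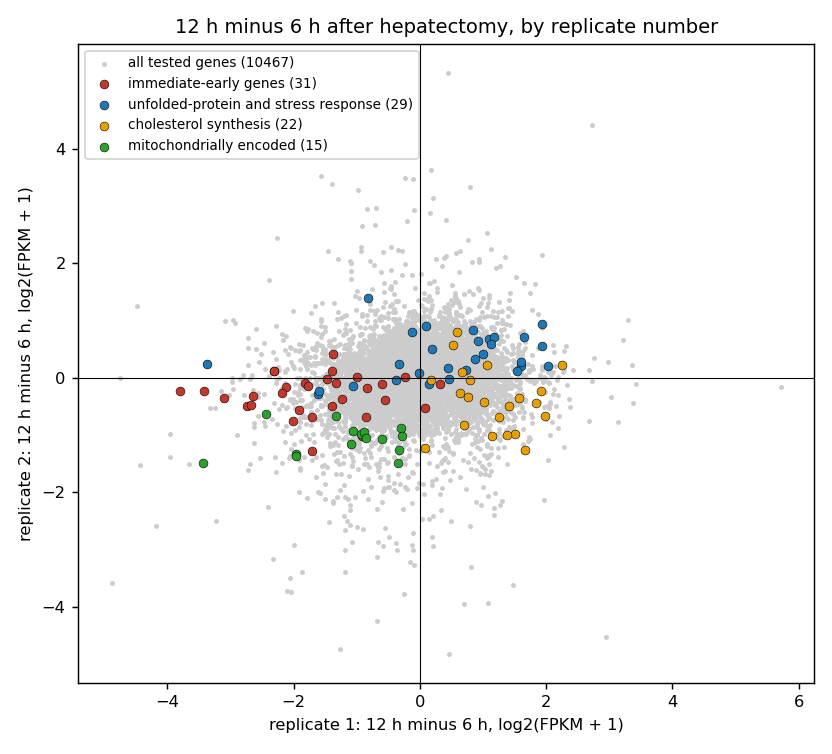
Difference between 12 h and 6 h on the log2(FPKM + 1) scale in replicate 1 (x axis) and replicate 2 (y axis), with 1 point per tested gene (10467, grey) and the members of 4 gene lists coloured. Nearly all immediate-early genes lie left of 0 with smaller differences in replicate 2, the 15 mitochondrially encoded genes lie in the lower left quadrant, and cholesterol synthesis genes lie right of 0 in replicate 1 and mostly below 0 in replicate 2.

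The 7 faded genes were all present at 6 h and at or near 0 at 12 h. Arxes2, an X-linked gene of the adipocyte lineage with a close copy, Arxes1, that may share its reads, was at 3.32 and 12.2 FPKM in the 6 h libraries (99 and 500 reads) and had no read in either 12 h library. Its log2 difference was -2.92 (SE 0.42, limma adjusted p = 0.044). Against a floor of 3 reads per library the 12 h level was at least 87.7-fold lower than the 6 h mean. This call was lost with a pseudocount of 0.1, with voom, with the replicate block, with the 4 libraries alone and without either 12 h library. Arxes2 was at 0.172 ± 0.185 FPKM (SD, n = 4) in regrown liver. Its level was above that mean in both 6 h libraries. It was the only one of the 7 that met the rule for naming, and the next genes were chosen after their values were seen. Mfap5, a microfibril protein of connective tissue, was at 1.84 and 2.63 FPKM at 6 h and had no read at 12 h, at least 59.3-fold lower than the 6 h mean. Ptx3, a secreted pattern-recognition protein, was at 1.68 and 2.19 FPKM at 6 h and had 4 reads and none at 12 h. The other 4 were the pseudogenes Gm43355, Gm43110, Gm6076 and Ccl19-ps3, whose reads may be shared with related genes. The 1 started gene, the microRNA gene Mir453, rested on 3 and 4 reads at 12 h and none at 6 h, so no fold is given. Genes that passed the filter through 1 time alone had to differ, and the calls carry that limit.

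Clec3b and Fabp4 stood higher at 6 h without passing the adjusted test. Clec3b, which encodes the plasminogen-binding protein tetranectin, was at 28.4 and 10.99 FPKM at 6 h and had no read at 12 h. This was at least 144-fold lower than the 6 h mean (log2 difference -4.23, SE 0.68, limma adjusted p = 0.066). Fabp4, a fatty acid carrier of adipocytes and endothelium, was at 61.6 and 131.6 FPKM at 6 h and at 37.9 and 5.95 FPKM at 12 h. It was a persisting gene, above the 1.94 ± 0.795 FPKM (SD, n = 4) of regrown liver by 4.99 at 6 h and 2.52 at 12 h on the log2 scale. All 12 h libraries lay below all 6 h libraries for both genes. The fixed stellate and mesenchymal markers summed to 40.6 and 42.2 FPKM at 6 h, to 26.03 and 37.1 at 12 h and to 31.4 to 74.4 in regrown liver, and 5 of the 8 tested did not overlap, all lower at 12 h, against 14.1% of all tested genes. Acta2, smooth muscle actin, was at 2.56 and 3.38 FPKM at 6 h and at 0.557 and 0.198 at 12 h, and Col1a1, fibrillar collagen, was at 2.02 and 1.66 FPKM and then at 0.406 and 0.716. Clec3b, Acta2 and Col1a1 passed the filter only through the 6 h libraries. Their lack of overlap was thus fixed in advance, and the count of 5 markers carries that limit. The part of stellate and mesenchymal cells in the 7 calls was not tested. In these bulk samples fewer cells of a type and less RNA per cell cannot be told apart.

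Most immediate-early genes stood lower at 12 h than at 6 h. Of 36 genes 31 were tested, 30 of them had a lower mean at 12 h, and in 20 all 12 h libraries lay below all 6 h libraries, against 14.1% of all tested genes. None passed the adjusted test between the times. The median difference was -0.96, and it was -1.71 in replicate 1 and -0.24 in replicate 2, beside 0.01 and 0.02 for all genes. It was -0.55 when 12 h replicate 1 was left out and -0.59 when 6 h replicate 1 was, and -1.33 when 6 h replicate 2 was. Against regrown liver 21 of the 31 were higher at 6 h (11.2% of all tested genes) and none lower. At 12 h 6 were higher (5.62%) and 1, Dusp6, was lower (5.48%). Dusp6 encodes a phosphatase of ERK kinases. The 6 genes higher at both times were all persisting.

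Plk3, a stress-responsive polo-like kinase, had the largest test statistic of the list. It was at 136.0 and 115.4 FPKM at 6 h, at 40.7 and 47.0 FPKM at 12 h and at 6.96 ± 3.17 FPKM (SD, n = 4) in regrown liver. Its difference between 12 h and 6 h was -1.50 (SE 0.28, 95% interval -2.11 to -0.89, limma adjusted p = 0.11), and the replicates of each time were close to each other. Myc, the growth-promoting transcription factor, was at 9.14 and 7.33 FPKM at 6 h and at 4.37 and 3.12 FPKM at 12 h, with 1.34 ± 0.825 FPKM (SD, n = 4) in regrown liver. Plk3 and Myc were both called above regrown liver at 6 h and at 12 h, by 4.08 and 2.58 (Plk3) and by 2.04 and 1.07 (Myc) on the log2 scale. Fosl2, an AP-1 subunit, was at 7.32 and 3.76 FPKM and then at 2.17 and 2.37, and Gadd45a, a growth-arrest protein, was at 8.61 and 2.69 FPKM and then at 0.435 and 1.63. Both passed against regrown liver only at 6 h, and the test between the times gave an adjusted p of 0.31 for each.

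In several well-known members the drop was large in replicate 1 and small in replicate 2. Egr1, a zinc-finger factor, was at 53.8 and 8.10 FPKM at 6 h and at 2.93 and 6.73 FPKM at 12 h. Fos and Junb, AP-1 subunits named after their values were seen, showed the same pattern. Fos was at 17.8 and 7.24 FPKM and then at 0.748 and 6.02, and Junb was at 115.9 and 104.4 FPKM and then at 12.6 and 81.5. In these 3 genes the groups did not overlap, but 12 h replicate 2 lay close to 6 h replicate 2. Gadd45g, a growth-arrest protein that met the rule for persisting genes, was at 438.9 and 654.9 FPKM at 6 h and at 95.5 and 546.2 FPKM at 12 h, against 8.32 ± 5.87 FPKM (SD, n = 4) in regrown liver.

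A cyclic AMP response element (CRE, TGACGTCA, which reads the same on both strands) was looked for in RefSeq promoters of build GRCm38.p6, from 250 bases before to 50 bases after a gene's start. Of the 36 immediate-early genes 29 were matched, with 38 promoters, and 4 promoters (10.5%) held the element, against 588 of all 32851 promoters (1.79%). The 4 were chosen for the element and not by the rule for naming. Of the list's 31 tested genes 30 had a lower mean at 12 h, among them Maff, Dusp1 and Btg2. Plk2 was the only tested gene of the list without a lower mean. The part of the element in these values was not tested. Each is written 5′ to 3′ on the gene's strand with the element in capitals, and a match of letters is a description, not a site.
Dusp1, chr17:26508593-26508630, minus strand: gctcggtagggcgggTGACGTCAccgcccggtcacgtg
Btg2, chr1:134079299-134079336, minus strand: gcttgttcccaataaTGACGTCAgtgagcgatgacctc
Maff, chr15:79347476-79347513, plus strand: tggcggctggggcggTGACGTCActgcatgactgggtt
Plk2, chr13:110394967-110395004, plus strand: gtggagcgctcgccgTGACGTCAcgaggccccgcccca
Dusp1, a phosphatase of MAP kinases, was at 29.3 and 19.5 FPKM at 6 h and at 3.83 and 15.4 at 12 h. Btg2, an antiproliferative gene, was at 39.7 and 19.6 FPKM and then at 7.24 and 21.3, so its groups overlapped. Maff, a small Maf factor, was at 3.50 and 3.51 FPKM and then at 0.922 and 2.50, and Plk2, a polo-like kinase, was at 1.41 and 1.23 FPKM and then at 2 and 1.07.

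The IL-6 and acute-phase list held both signalling genes and secreted products, and the 4 signalling genes named by the rule are given first. Socs3, the main feedback inhibitor of IL-6 signalling, was at 94.9 and 59.3 FPKM at 6 h, at 11.9 and 29.2 FPKM at 12 h and at 3.06 ± 1.21 FPKM (SD, n = 4) in regrown liver. Its difference between the times was -1.94 (SE 0.54, limma adjusted p = 0.31), and it was called above regrown liver at both times. Socs1, a related inhibitor, was at 5.84 and 1.23 FPKM and then at 0.248 and 0.242, which was within 1 SD of the 0.120 ± 0.132 FPKM (SD, n = 4) of regrown liver. Pim1, a STAT-induced kinase, was at 26.4 and 10.3 FPKM and then at 6.35 and 5.95, and Bcl3, an atypical IκB protein, was at 76.6 and 35.3 FPKM and then at 12.9 and 28.8. In these 4 genes the 12 h libraries all lay below the 6 h libraries. For Socs1 this order was fixed in advance, since it passed the filter only through the 6 h libraries.

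Of the secreted products, the protease inhibitor Serpina3n was at 2298 and 2327 FPKM at 6 h and at 3459 and 2826 FPKM at 12 h, against 311.0 ± 185.4 FPKM (SD, n = 4) in regrown liver. It was called above regrown liver at both times, by 3.05 and 3.49 on the log2 scale. The fibrinogen chain genes Fga, Fgb and Fgg were each higher in both 12 h libraries than in both 6 h libraries. Fgb, for example, was at 3054 and 3188 FPKM and then at 4803 and 4159, and its interval for 12 h minus 6 h ran from -0.47 to 1.51. Fgb and Fgg passed against regrown liver at 12 h, by 1.56 and 1.66, and not at 6 h, but the difference between the times did not pass. These products were chosen for description after their values were seen. The serum amyloid genes Saa1 and Saa2 were at 2606 to 12882 FPKM over the 4 libraries, and as near-identical copies they may share reads.

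Over the whole acute-phase and IL-6 list, all 35 genes were tested and the median difference was -0.12 (-0.14 and -0.08 in replicates 1 and 2). In 6 genes the libraries did not overlap with 12 h higher, near the 14.6% of all tested genes, and in 13 with 12 h lower (14.1%). At 6 h 13 were called above regrown liver (11.2% of all tested genes) and 1 below (9.17%). At 12 h 9 were above (5.62%) and none below (5.48%). The list's median was 0.09 when libraries were rescaled to the same FPKM sum, so its sign depends on the scaling.

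Most NF-κB and chemokine genes had a lower mean at 12 h. Cxcl1, a neutrophil attractant, was at 375.5 and 89.4 FPKM at 6 h and at 23.1 and 44.8 FPKM at 12 h, with 8.80 ± 3.04 FPKM (SD, n = 4) in regrown liver. Its groups did not overlap, and the difference of -2.47 (SE 0.98) had an adjusted p of 0.46. The related Cxcl2 was at 10.6 and 1.73 FPKM and then at 2.99 and 0.387, with overlapping groups. Nfkbiz, a nuclear IκB protein, was at 7.56 and 5.09 FPKM and then at 3.26 and 2.81, while Cxcl12, a constitutive chemokine, went the other way, from 3.22 and 11.1 to 16.8 and 11.5. Of 26 tested NF-κB and chemokine genes 23 had a lower mean at 12 h, with a median of -0.39 (-0.55 and -0.18 by replicate), which was -0.08 without 6 h replicate 1 and -0.69 without 6 h replicate 2. In 5 of the 26 the libraries did not overlap with 12 h lower (14.1% of all tested genes) and in 1 with 12 h higher (14.6%). At 6 h 3 of the 26 were called above regrown liver, near the 11.2% of all tested genes, and 1 below (9.17%). At 12 h none was called (5.62% above and 5.48% below). The 11 neutrophil markers summed to 833.7 and 113.9 FPKM at 6 h, to 377.7 and 56.3 FPKM at 12 h and to 3.28 to 79.2 FPKM in regrown liver. Replicate 1 was thus the higher at both times, and all 6 tested markers overlapped between the times. Their median of -1.05 was 0.23 without 6 h replicate 1 and -0.13 without 12 h replicate 2. The part of neutrophils in the chemokine values was not tested.

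**Figure D2:**
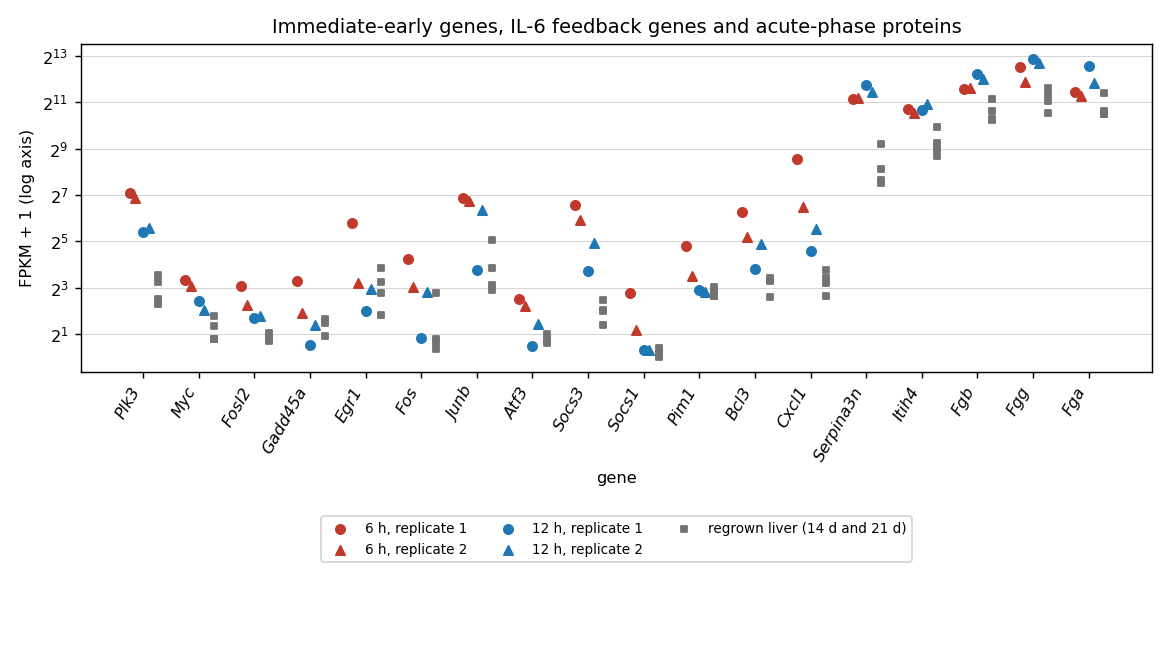
FPKM + 1 on a log axis (y) for 18 genes (x) in the 6 h libraries (red), the 12 h libraries (blue) and the 4 regrown libraries (grey), with circles for replicate 1 and triangles for replicate 2. From Plk3 to Cxcl1 the blue points lie below the red ones, while for Serpina3n and the fibrinogen genes they lie above, and Itih4 overlaps.

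Most genes of the unfolded protein response list, many of them chaperones of the endoplasmic reticulum (ER), had a higher mean at 12 h. The unfolded protein response senses misfolded protein in the ER and, through ATF6, XBP1 and ATF4, induces chaperones and stress genes. Of 30 genes on this list 29 were tested. In 17 all 12 h libraries lay above all 6 h libraries, against 14.6% of all tested genes, and in 4 they lay below. The median difference was 0.50, with 0.74 in replicate 1 and 0.28 in replicate 2. None passed the adjusted test between the times. At 6 h 6 genes were called above regrown liver (11.2% of all tested genes) and 1 below (9.17%). At 12 h 7 were above (5.62%) and none below. The median stayed above 0 under the 3 rescalings, from 0.34 to 0.72.

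The members ranged in direction. Canx, the membrane chaperone calnexin, was at 28.1 and 36.1 FPKM at 6 h and at 54.2 and 57.1 FPKM at 12 h, against the 73.0 ± 5.30 FPKM (SD, n = 4) of regrown liver. It was called below regrown liver at 6 h, by -1.17, and not at 12 h. Dnajc3, a co-chaperone and inhibitor of the kinase PERK, was at 35.9 and 30.2 FPKM and then at 78.0 and 48.8. Their differences between the times were 0.78 (SE 0.27, interval 0.19 to 1.38) and 0.89 (SE 0.31, interval 0.21 to 1.56), with an adjusted p of 0.39 for each. Sdf2l1, an ER protein of the chaperone network that met the rule for the largest differences, was at 40.6 and 68.5 FPKM at 6 h and at 157.9 and 132.0 FPKM at 12 h. It stood at 43.9 ± 26.02 FPKM (SD, n = 4) in regrown liver and passed against it at 12 h, by 1.86. Derl3, a factor of ER-associated degradation outside the list that met the same rule, was at 3.35 and 1.97 FPKM and then at 41.6 and 4.98, so its size rested on 12 h replicate 1.

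Other chaperones, chosen after their values were seen, showed the same order of libraries. Hspa5, the ER chaperone BiP, was at 440.0 and 304.3 FPKM at 6 h and at 994.0 and 502.7 FPKM at 12 h. Hsp90b1 was at 258.1 and 235.0 FPKM and then at 786.0 and 285.3, and Calr, calreticulin, was at 136.3 and 329.6 FPKM and then at 556.8 and 381.3. The differences were larger in replicate 1 for these 3 genes. Manf, an ER-stress-induced secreted protein, was at 51.5 and 90.9 FPKM and then at 164.6 and 148.9. Hspa5, Hsp90b1 and Manf passed against regrown liver at 12 h and not at 6 h, but no gene of the list was a started gene by the test between the times.

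Some other members stood lower at 12 h, and 4 of the 29 did so without overlap, near the 14.1% of all tested genes. Ppp1r15a, which reverses the translation block of this pathway, was at 9.30 and 6.56 FPKM at 6 h and at 2.38 and 5.19 at 12 h. Nupr1, a stress-induced nuclear protein, was at 4.49 and 1.81 FPKM and then at 0.808 and 1.41. Both were called above regrown liver at 6 h and not at 12 h. Atf4 itself, named after its values were seen, was at 124.1 and 76.1 FPKM at 6 h and at 59.3 and 68.8 FPKM at 12 h, and its target Ddit3 was at 17.3 and 14.2 FPKM and then at 13.1 and 13.9, above regrown liver at both times.

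The ER stress response element (ERSE) was searched as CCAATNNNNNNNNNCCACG on both strands of the same RefSeq promoters. Of the 30 genes 27 were matched, with 28 promoters, and 7 of these (25.0%) held it, against 39 of all 32851 promoters (0.119%). The 7 genes were Hspa5, Calr, Hsp90b1, Canx, Pdia6, Dnajc3 and Creld2. All 7 had higher levels in both 12 h libraries than in both 6 h libraries, with log2 differences of 0.71 to 1.12. Their median was 0.89. The 22 tested genes of the list without a match in these windows ranged from -1.57 to 1.43 with a median of 0.32. Without overlap, 10 of these 22 stood higher and 4 lower. The list is made of known genes of this response and was chosen with earlier results of these data known. Neither its share of promoters nor this split was therefore a test. The part of the element in these values was not tested. Each sequence runs 5′ to 3′ on the gene's strand, with the element in capitals, in the reverse direction where it starts with CGTGG. Build GRCm38.p6 was used.
Hspa5, chr2:34772010-34772058, plus strand: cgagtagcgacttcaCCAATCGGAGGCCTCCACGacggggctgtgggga
Calr, chr8:84847060-84847108, minus strand: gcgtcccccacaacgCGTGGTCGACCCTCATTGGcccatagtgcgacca
Hsp90b1, distal, chr10:86705623-86705671, minus strand: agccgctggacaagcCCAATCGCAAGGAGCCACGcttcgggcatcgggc
Hsp90b1, proximal, chr10:86705518-86705566, minus strand: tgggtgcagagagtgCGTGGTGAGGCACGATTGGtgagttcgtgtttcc
Canx, chr11:50325785-50325833, minus strand: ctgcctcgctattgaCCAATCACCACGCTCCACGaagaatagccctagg
Pdia6, chr12:17266476-17266524, plus strand: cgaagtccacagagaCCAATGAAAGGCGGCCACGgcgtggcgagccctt
Dnajc3, chr14:118937812-118937860, plus strand: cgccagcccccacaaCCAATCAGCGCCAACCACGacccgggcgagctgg
Creld2, chr15:88819505-88819553, plus strand: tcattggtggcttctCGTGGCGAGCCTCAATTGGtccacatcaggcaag

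**Figure D3:**
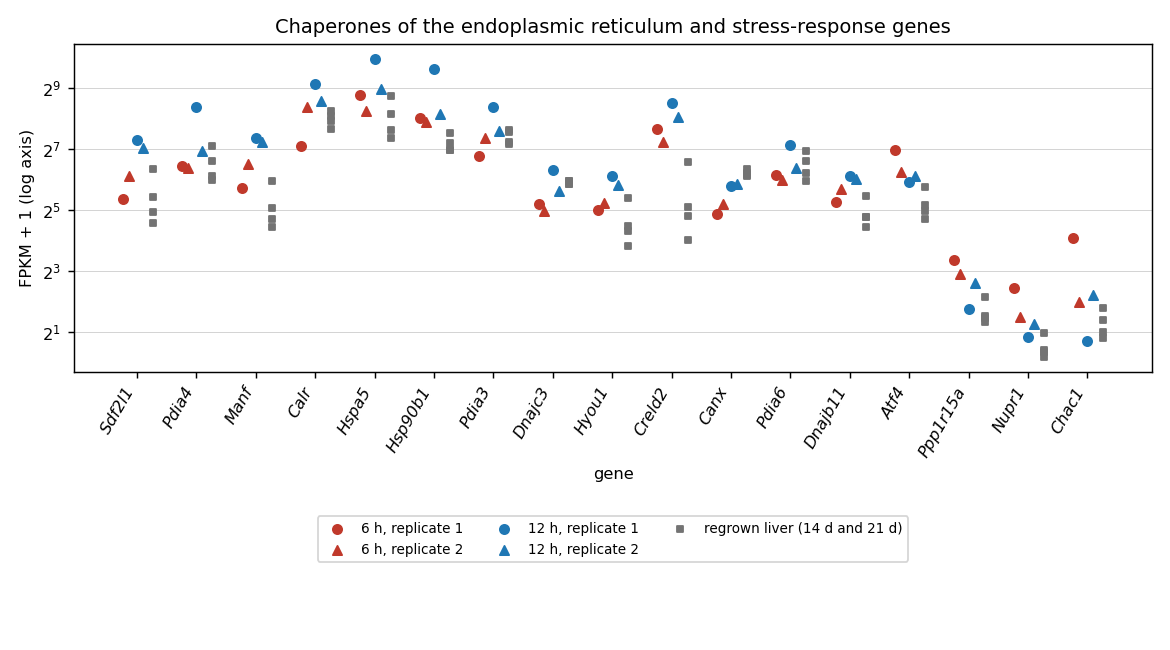
FPKM + 1 on a log axis (y) for 13 chaperone and folding genes and 4 stress-response genes (x), with 6 h libraries in red, 12 h libraries in blue, regrown liver in grey, circles for replicate 1 and triangles for replicate 2. The blue points lie above the red ones from Sdf2l1 to Dnajb11, and below them or overlapping for Atf4, Ppp1r15a, Nupr1 and Chac1.

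Ribosome biogenesis genes process ribosomal RNA for cell growth. All 33 were tested. At 6 h 11 were called above regrown liver (11.2% of all tested genes) and none below, and at 12 h 4 were above (5.62%). In 13 of the 33 all 12 h libraries lay below the 6 h libraries, against 14.1% of all tested genes, and in none above. The median was -0.36, with -0.83 in replicate 1 and no difference to 2 decimals in replicate 2, and it was -0.06 without 6 h replicate 1 and -0.80 without 6 h replicate 2. Nop56, a core protein of small nucleolar ribonucleoproteins, was at 24.9 and 23.7 FPKM at 6 h and at 11.4 and 14.9 FPKM at 12 h, with 5.40 ± 1.61 FPKM (SD, n = 4) in regrown liver. Nop56 and Mybbp1a, a nucleolar Myb-binding protein, were persisting genes. Mybbp1a was at 32.5 and 27 FPKM and then at 14.7 and 22.7. Nop58 and Nolc1, both nucleolar, were called above regrown liver at 6 h only.

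Mitosis genes were low at both times. None of 26 mitosis genes passed the filter, and their summed level was 10.3 and 14.9 FPKM at 6 h and 4.61 and 3.55 FPKM at 12 h. The highest single value among them was 2.32 FPKM, for Cdc20, an activator of the anaphase-promoting complex, in 6 h replicate 2. Of 34 DNA replication genes 13 were tested, and 10 of these had a lower mean at 12 h. None was called above regrown liver at either time, with 2 below at 6 h (9.17% of all tested genes) and 3 at 12 h (5.48%). Mcm7, a helicase subunit, was at 5.32 and 2.19 FPKM at 6 h and at 1.998 and 2.14 at 12 h, against 2.50 ± 0.565 FPKM (SD, n = 4) in regrown liver. Ccnd1, the cyclin of G1 entry, was at 3.80 and 2.43 FPKM at 6 h and at 1.79 and 0.727 FPKM at 12 h, below the 6.28 ± 2.04 FPKM (SD, n = 4) of regrown liver. It passed below regrown liver at 12 h, by -1.68. Ccnd2, a second D-type cyclin, was at 1.36 and 1.10 FPKM and then at 0.422 and 0.500. Of 15 tested G1 genes these 2 did not overlap, lower at 12 h, which is near the 14.1% of all tested genes. Ccnd2 passed the filter only through the 6 h libraries, so its lack of overlap was fixed in advance. Only 2 genes of the G1 list were called above regrown liver at both times (4.42% of all tested genes persisted higher). The list's median distance from regrown liver was 0.11 at 6 h and 0.05 at 12 h. The highest distance from regrown liver in the G1 list was 3.39 at 6 h and 3.84 at 12 h. Below regrown liver 1 was called at 6 h (9.17%) and 2 at 12 h (5.48%).

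Cholesterol synthesis was low at both times. Of 24 genes 22 were tested. At 6 h 18 were called below regrown liver (9.17% of all tested genes) and at 12 h 15 were (5.48%). All 15 were persisting, against 4.89% of tested genes that persisted lower. Insig1, which retains the sterol sensor SCAP in the ER, was at 3.68 and 13.6 FPKM at 6 h and at 12.3 and 6.41 FPKM at 12 h, against 134.3 ± 20.1 FPKM (SD, n = 4) in regrown liver. Fdft1, which encodes squalene synthase, also persisted. Fdft1 was at 1.32 and 3.17 FPKM and then at 7.83 and 2.56, with 48.1 ± 17.0 FPKM (SD, n = 4) in regrown liver. Between 6 h and 12 h the submissions gave opposite signs, with a list median of 1.10 in replicate 1 and -0.38 in replicate 2. In 3 of the 22 genes the libraries did not overlap, all higher at 12 h, near the 14.6% of all tested genes. No direction is given for the list between the times.

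Lipid droplet genes serve fat storage. Of 18 such genes 14 were tested, and 7 were called above regrown liver at 6 h (11.2% of all tested genes) and 6 at 12 h (5.62%). Of the 14, 5 persisted higher, against 4.42% of all tested genes, and 1, Cideb, persisted lower (4.89%). Cidec, which enlarges lipid droplets, was at 50.8 and 99.8 FPKM at 6 h and at 62.7 and 137.4 FPKM at 12 h, against 0.960 ± 0.926 FPKM (SD, n = 4) in regrown liver. It was above regrown liver by 5.32 (SE 0.48) at 6 h and by 5.70 (SE 0.48) at 12 h, and the interval between the times ran from -0.83 to 1.59. Plin4, a droplet coat protein, was at 19.6 and 16.4 FPKM and then at 20.4 and 3.28, with 0.193 ± 0.0709 FPKM (SD, n = 4) in regrown liver. Cideb, which loads lipid onto very low density lipoprotein, was at 2.52 and 1.98 FPKM at 6 h and at 11.8 and 5.48 FPKM at 12 h, against 32.5 ± 4.57 FPKM (SD, n = 4). Its 12 h libraries lay above both 6 h libraries, by 1.49 (SE 0.50, limma adjusted p = 0.37). The lipase gene Lipe was at 2.35 and 7.66 FPKM and then at 2.07 and 1.77, and the lipase activator Abhd5 was at 3.69 and 3.71 FPKM and then at 1.72 and 2.14, both lower at 12 h without overlap.

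Lipogenic genes divided. At 6 h 7 of 16 tested were called below regrown liver (9.17% of all tested genes), at 12 h 8 (5.48%), and 7 persisted (4.89%). Thrsp, a carbohydrate-responsive lipogenic gene, was at 52.3 and 58.5 FPKM at 6 h and at 8.27 and 21.7 FPKM at 12 h, and Mlxipl, the carbohydrate-response factor ChREBP, was at 24.7 and 33.5 FPKM and then at 9.42 and 13.0. In both genes the groups did not overlap, with differences of -1.96 (SE 0.70) and -1.30 (SE 0.52). Gpam, the first enzyme of triglyceride synthesis, was at 1.69 and 1.76 FPKM and then at 9.26 and 2.04, against 25.5 ± 7.75 FPKM (SD, n = 4). The list median was -0.02 and changed sign between scalings.

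**Figure D4:**
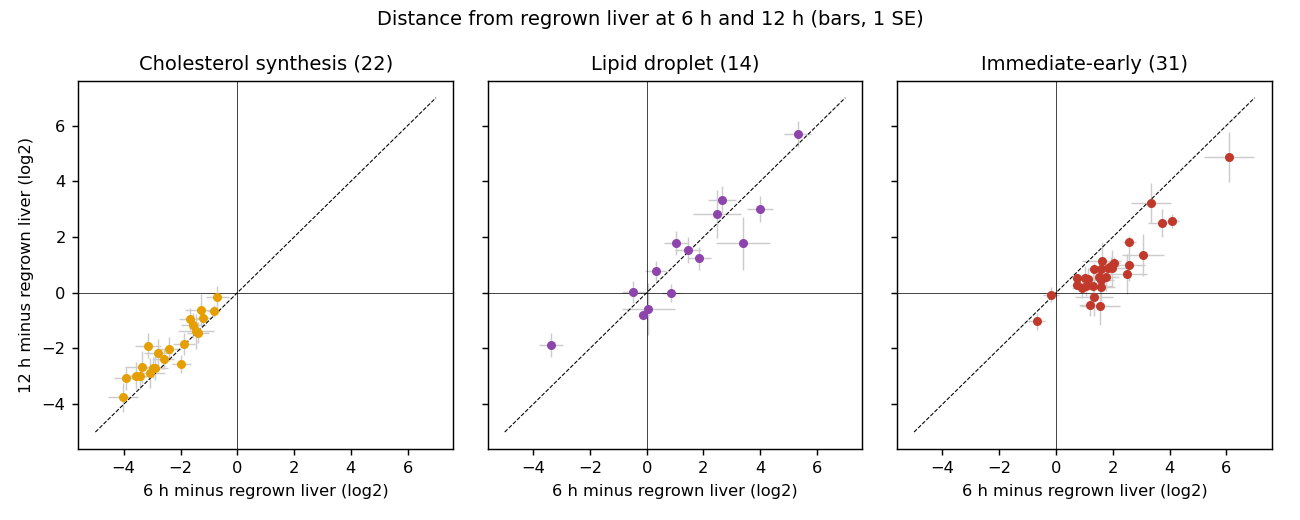
Log2 difference from regrown liver at 6 h (x axis) and at 12 h (y axis) for the tested members of 3 gene lists, with bars of 1 SE and a dashed line where both are equal. Cholesterol genes lie below 0 on both axes and lipid droplet genes on both sides of the line, while immediate-early genes lie mostly under the line. Both axes share the regrown libraries.

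Fatty acid oxidation genes mostly stood higher at 12 h. All 19 were tested, 18 had a higher mean at 12 h, 14 were higher in both replicates, against 28.5% of all tested genes, and 7 did not overlap, all higher (14.6% of all tested genes). The median was 0.46 (0.45 and 0.44 by replicate; 0.24 without 6 h replicate 1), and the list's median distance from regrown liver was -1.05 at 6 h and -0.41 at 12 h. At 6 h 6 were called below regrown liver (9.17% of all tested genes). At 12 h 3 were below (5.48%) and 1 above (5.62%). Hadha and Hadhb, the subunits of the mitochondrial trifunctional protein, were at 12.6 and 14.1 FPKM and at 10.4 and 9.05 FPKM at 6 h. At 12 h they were at 20.3 and 23.4 FPKM and at 19.1 and 14.2 FPKM, against 29.6 ± 9.13 and 23.3 ± 5.63 FPKM (SD, n = 4) in regrown liver. All 12 h libraries lay above all 6 h libraries for both genes.

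Of 24 urea cycle and amino acid genes, 17 had a higher mean at 12 h and 5 did not overlap, all higher (14.6% of all tested genes), with a median of 0.42 (0.46 and 0.40 by replicate). The sign rested on single libraries, since the median was -0.13 when 12 h replicate 2 was left out and -0.26 when 6 h replicate 1 was. The median distance from regrown liver was -1.15 at 6 h and -0.70 at 12 h. At 6 h 10 were called below regrown liver (9.17% of all tested genes) and 3 above (11.2%). At 12 h 5 were below (5.48%) and 2 above (5.62%). Slc25a15, the mitochondrial ornithine carrier, was at 31.1 and 54.6 FPKM at 6 h and at 77.7 and 107.1 FPKM at 12 h (difference 1.13, SE 0.36, limma adjusted p = 0.37). Tdo2, the tryptophan-degrading enzyme, was at 205.8 and 158.7 FPKM and then at 434.0 and 393.2, and Hgd, of tyrosine breakdown, at 52.9 and 64.2 FPKM and then at 102.3 and 86.7. These 3 stood higher in both 12 h libraries. Cps1, the entry enzyme of the urea cycle, was at 39.2 and 317.4 FPKM at 6 h and at 428.9 and 293.7 FPKM at 12 h, so its value was set by 6 h replicate 1.

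PPARα targets, the fasting genes of the liver, had a median of 0.22 over 22 tested (0.53 and 0.02 by replicate). Of these, 6 were called above regrown liver at each time, against 11.2% of all tested genes at 6 h and 5.62% at 12 h. Pdk4, which blocks pyruvate oxidation, was at 157.8 and 7.07 FPKM at 6 h and at 14.9 and 4.59 FPKM at 12 h. Its high level at 6 h rested on replicate 1. Fgf21, a fasting hormone, was at 2.75 and 2.63 FPKM and then at 4.56 and 8.58, and it passed against regrown liver at 12 h only. Slc25a20, the carnitine carrier, was at 15.8 and 25.7 FPKM and then at 32.3 and 35.3.

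Of 32 drug-metabolism genes, 15 were called below regrown liver at 6 h (9.17% of all tested genes) and 14 at 12 h (5.48%), none above, and 13 persisted (4.89%). Cyp2c29, a xenobiotic-metabolising cytochrome P450, was at 14.5 and 45.4 FPKM at 6 h and at 37.2 and 103.0 FPKM at 12 h, against 434.9 ± 99.0 FPKM (SD, n = 4) in regrown liver. Cyp2j5 was at 39.1 and 70.0 FPKM and then at 74.6 and 73.7, against 226.4 ± 34.0 FPKM (SD, n = 4). The list's medians were -1.72 against regrown liver at both times, and 0.20 between them, where 5 genes did not overlap, all higher at 12 h, near the 14.6% of all tested genes. That median was -0.06 when 12 h replicate 2 was left out and -0.11 when 6 h replicate 1 was. Of 21 tested bile acid genes 9 were below regrown liver at 6 h (9.17% of all tested genes) and 7 at 12 h (5.48%), and 7 persisted (4.89%). Slco1b2, an uptake transporter, was at 17.5 and 24.9 FPKM and then at 42 and 27.3, against 250.6 ± 60.6 FPKM (SD, n = 4), and the nuclear receptor gene Nr1h4 (FXR) was at 39.9 and 60.1 FPKM and then at 37.5 and 27.5.

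Among 18 gluconeogenesis and glycogen genes tested, 6 were below regrown liver at each time (9.17% of all tested genes at 6 h, 5.48% at 12 h). All 6 persisted (4.89%), while 2 were above at 6 h (11.2%) and 1 at 12 h (5.62%). Pklr, the liver pyruvate kinase, was at 1.57 and 2.69 FPKM and then at 6.12 and 2.40, against 46.3 ± 25.4 FPKM (SD, n = 4). Fbp1, fructose-bisphosphatase, was at 256.2 and 211.2 FPKM at 6 h and at 466.3 and 418.7 FPKM at 12 h, level with the 453.9 ± 113.5 FPKM (SD, n = 4) of regrown liver, and its test between the times gave an adjusted p of 0.59. Of 27 secreted liver proteins tested 3 did not overlap, all higher at 12 h, a share below the 14.6% of all tested genes. In this list 4 persisted below regrown liver (4.89%). Ttr, the thyroxine carrier, was at 1463 and 3084 FPKM and then at 2085 and 4656. Of 17 liver transcription factors 4 did not overlap with 12 h higher (14.6% of all tested genes) and 1 with 12 h lower (14.1%). Their median was 0.02. Creb3l3, an ER-bound factor of the acute phase, was at 129.1 and 160.7 FPKM and then at 181.6 and 209.0, and passed against regrown liver at 12 h only.

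The largest persisting differences above regrown liver included metal and growth-arrest genes. Mt1 and Mt2, metal-binding metallothioneins, were at 2286 and 6895 FPKM and at 54.5 and 181.8 FPKM at 6 h. At 12 h they were at 1224 and 7120 FPKM and at 41.4 and 207.1 FPKM, so the spread between submissions exceeded that between times, and 14 d replicate 1 also stood apart among the regrown libraries for Mt2. Slc39a14, a zinc and iron importer, was at 114.7 and 58.9 FPKM and then at 37.4 and 58.4, against 13.3 ± 5.43 FPKM (SD, n = 4), and it persisted higher. Hba-a1, a globin gene that shares reads with its copy Hba-a2, was at 3459 and 356.0 FPKM at 6 h and at 2877 and 71.9 FPKM at 12 h. The erythroid markers summed to 7090 and 6439 FPKM in replicate 1 and to 583.6 and 137.9 FPKM in replicate 2, so this level followed the submission. The largest persisting differences below regrown liver were those of Akr1c14, Nrn1, Insig1, Cyp2c29 and Apol7a. Akr1c14, a hydroxysteroid dehydrogenase, was at 6.70, 6.12, 5.197 and 4.61 FPKM in the 4 libraries against 142.0 ± 46.2 FPKM (SD, n = 4). Nrn1, which encodes neuritin, was at 2.67 and 2.72 FPKM and then at 5.28 and 5.85 against 60.6 ± 5.10 FPKM (SD, n = 4), and Apol7a was at 0.373 to 3.13 FPKM against 38.3 ± 12.9 FPKM (SD, n = 4).

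Apart from the genes above, the largest differences without overlap that did not pass the test were mixed in kind. Higher at 12 h were Apoa4, a lipoprotein component, at 84.5 and 175.7 FPKM and then at 205.2 and 684.0, and Hist1h1c, a linker histone, at 11.3 and 14.96 FPKM and then at 37.6 and 49.2. Stbd1, a glycogen-binding protein, was at 1.43 and 10.8 FPKM and then at 21.5 and 17.6, and Chst13, a chondroitin sulfotransferase, at 1.18 and 0.633 FPKM and then at 6.69 and 4.06. Tmem41a was at 4.26 and 3.54 FPKM and then at 16.6 and 11.7. The adjusted p was 0.10 for Chst13 and for Tmem41a and higher for the other 3, and regrown liver had Hist1h1c and Chst13 at 42.01 ± 6.41 and 5.63 ± 1.26 FPKM (SD, n = 4). Rnu73b, Rnd2, Acnat2 and Paqr7 completed the rule's list of increases.

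Lower at 12 h were Zc3h13, a component of the RNA methylation complex, at 99.3 and 28.9 FPKM and then at 3.65 and 9.42, and Fbf1, a protein of the ciliary base, at 34.3 and 9.81 FPKM and then at 1.27 and 3.15. Their regrown levels were 2.09 ± 0.392 and 0.318 ± 0.0407 FPKM (SD, n = 4), and the adjusted p was 0.14 and 0.066. Rgcc, a regulator of the cell cycle, was at 2.07 and 12.8 FPKM and then at 0.344 and 0.314. Ifi27l2a, an interferon-induced gene, was at 7.98 and 147.3 FPKM and then at 2.73 and 4.56, so its 6 h level rested on replicate 2. Nkain4, at 11.6 and 1.84 FPKM at 6 h, had no read at 12 h, at least 61.5-fold lower than the 6 h mean. In regrown liver it was at 0 and 7.69 FPKM at 14 d and at 0 and 1.59 FPKM at 21 d. The microRNA gene Mir3092 completed the rule's list of decreases. Rgcc, Nkain4 and Mir3092 passed the filter only through the 6 h libraries, so their lack of overlap was fixed in advance.

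Mitochondrially encoded genes stood lower at 12 h in every comparison of same-numbered libraries. All 15 were lower in both replicates, against 25.6% of tested genes, with a median of -0.96 (-0.94 and -1.05 by replicate) and 12 h was lower under all 3 rescalings (-0.73 to -1.12). It was -0.11 without 12 h replicate 1 and -0.08 without 6 h replicate 2. Only mt-Co3, a subunit of cytochrome c oxidase, did not overlap, at 1446 and 2698 FPKM at 6 h and at 132.3 and 966.8 FPKM at 12 h. At 6 h 12 of the 15 were called above regrown liver (11.2% of all tested genes) and at 12 h none (5.62%). Mitochondrial reads made up 20.9% and 40.7% of reads at 6 h and 12.6% and 23.0% at 12 h. This share enters the scaling of other genes, and its part in them was not tested beyond the rescalings.

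In the remaining stress and growth lists the sign of the p53, heat-shock and growth factor receptor medians changed with the scaling. The p53 list (16 tested) had a median of -0.06. In it 7 were above regrown liver at 6 h (11.2% of all tested genes) and 5 at 12 h (5.62%), and 4 persisted higher (4.42%). Apart from Plk3, Phlda3, an AKT inhibitor, was at 1.38 and 3.95 FPKM and then at 0.521 and 1.09. Heat-shock genes (17 tested) had a median of 0.03, and Hsf1, their regulator, was at 4.96 and 4.11 FPKM and then at 2.64 and 2.55. Interferon genes (21 tested) had a median of -0.32, which was -0.02 without 12 h replicate 1 and -0.63 without 12 h replicate 2. At 6 h 8 were below regrown liver (9.17% of all tested genes) and 2 above (11.2%). At 12 h 10 were below (5.48%), and 8 persisted lower (4.89%). Gbp2, a guanylate-binding protein, was at 2.84 and 2.17 FPKM and then at 1.22 and 0.280. Growth factor receptor genes (22 tested) had a median of -0.01, and 2 did not overlap in each direction (14.6% of all tested genes higher, 14.1% lower). YAP targets (15 tested) had a median of -0.23, which was -0.13 without 12 h replicate 2, and 6 of them did not overlap with 12 h lower (14.1% of all tested genes). Ankrd1, a YAP target, was at 1.08 FPKM in both 6 h libraries and had no read at 12 h, at least 23.0-fold lower than the 6 h mean. It passed the filter only through the 6 h libraries. Its lack of overlap was thus fixed in advance, and the count of 6 carries that limit. Glul, the pericentral glutamine synthetase, was at 200.7 and 132.7 FPKM and then at 76.0 and 84.2, around the 120.2 ± 17.4 FPKM (SD, n = 4) of regrown liver.

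The core clock drives rhythmic liver genes, and the hour of sampling is not given in the sources used here. Of 17 clock genes tested 1, Clock, did not overlap between the times, higher at 12 h, a share below the 14.6% of all tested genes. Clock was at 2.29 and 1.71 FPKM and then at 3.86 and 2.57, with a difference of 0.48 (interval -0.12 to 1.07). Ciart, a clock repressor, was at 0.477 and 8.89 FPKM at 6 h and at 3.41 and 11.6 FPKM at 12 h, so it followed the submission more than the time.

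Markers of other cell types were present in all 4 libraries, and no marker of the 8 lists was at 0 in all of them. Endothelial markers summed to 219.6 and 102.3 FPKM at 6 h and to 73.6 and 106.6 FPKM at 12 h, with 63.0 to 88.7 in regrown liver. Of the 12 tested, 7 did not overlap, all lower at 12 h (14.1% of all tested genes), and 5 were above regrown liver at 6 h (11.2%) and 1 at 12 h (5.62%). Cdh5, VE-cadherin, was at 18.7 and 8.28 FPKM and then at 3.35 and 5.66. Kupffer cell and macrophage markers summed to 360.5 and 164.0 FPKM at 6 h and to 166.4 and 266.1 FPKM at 12 h, with 283.5 to 549.2 FPKM in regrown liver, and their median had opposite signs in the submissions (-0.86 and 0.50). Cd5l, secreted by Kupffer cells, was at 35.1, 15.02, 14.2 and 15.9 FPKM against 81.2 ± 27.7 FPKM (SD, n = 4). Cholangiocyte markers summed to 73.7 and 22.7 FPKM and then to 46.3 and 14.0, and lymphocyte markers to 27.3 and 4.87 FPKM and then to 8.53 and 1.71. These sums were lower at 12 h within each submission for cholangiocyte, neutrophil, lymphocyte, stellate and erythroid markers, and higher within each for hepatocyte markers. They were taken as deposited and not rescaled. The FPKM sum over all genes was 439907 and 951765 at 6 h and 416705 and 728670 at 12 h. The direction of a small difference, such as the stellate one in replicate 2, may therefore depend on the scaling. The part of these cell types in the differences between 12 h and 6 h was not tested.

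**Figure D5:**
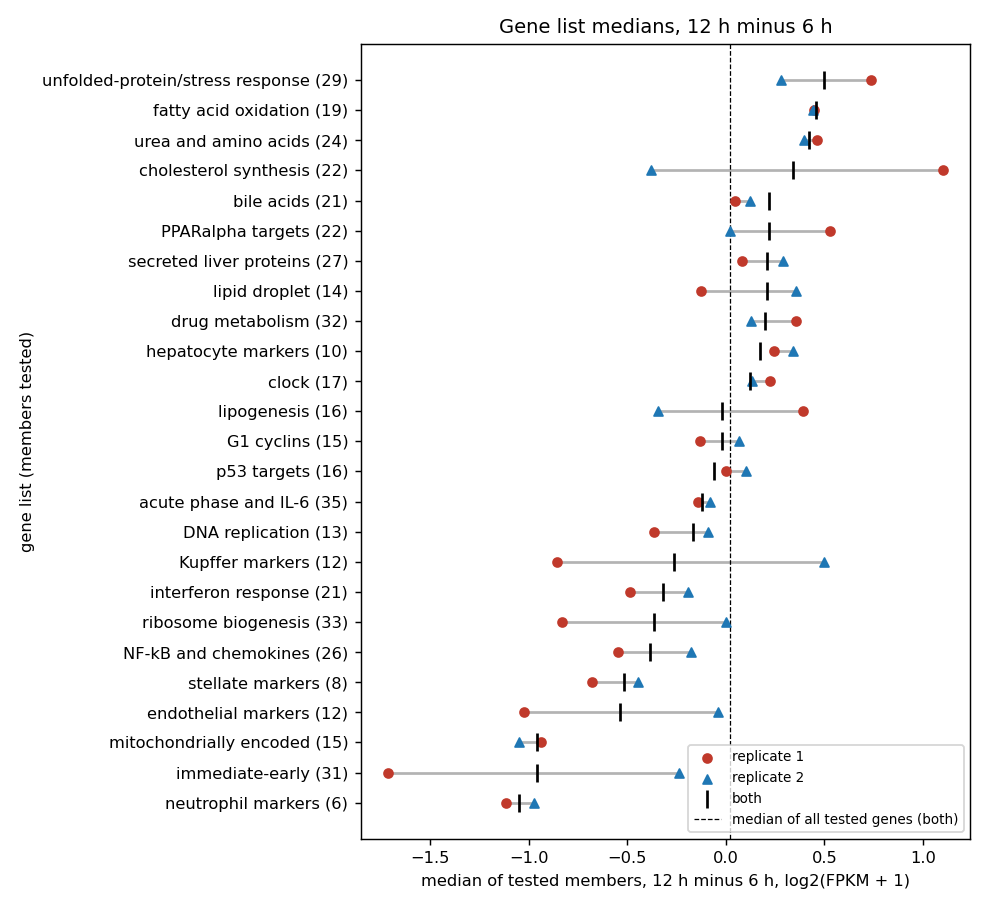
Median difference between 12 h and 6 h over the tested members of 25 gene lists (y axis, number tested in parentheses) on the log2(FPKM + 1) scale (x axis), within replicate 1 (circle), within replicate 2 (triangle) and over both (bar). The dashed line is the median of all tested genes, 0.02. Only lists whose circle and triangle lie on the same side of 0 had the same sign in both submissions.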

How the data were processed

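Bulk RNA was sequenced from mouse liver libraries, 2 per time. Reads were processed with HISAT2 2.0.5 and genome build mm10, per the submitters' processing notes, and the authors deposited FPKM values for 54532 genes in 20 libraries. The counter and annotation are not known here. Gene IDs were matched to GENCODE M21 symbols and lengths (54495 matched) and promoters to RefSeq GRCm38.p6. The 10467 genes at 1 FPKM or more in 2 of the 4 libraries were analysed as log2(FPKM + 1). Fold changes on this scale understate those of low genes. limma 3.58.1 (R 4.3.3) fitted 1 mean per time over the 16 libraries taken after hepatectomy, with a mean-variance trend and robust variances, and Benjamini-Hochberg adjustment over all tested genes. A call needed an adjusted p under 0.05 and a log2 difference of at least 1. The pipeline was tested on simulated data.

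Whole reads could be recovered from the FPKM steps. In the 4 libraries 98.1% to 98.7% of values of up to 20 reads were within 0.05 of a whole number, and limma's voom on those reads called 0 genes between 12 h and 6 h (990 at an unadjusted p under 0.05). Depth limits low genes, and intervals cover the spread between libraries only. Genes were named by rule: up to 12 per direction with the largest difference, a mean of at least 5 FPKM and no overlap, 5 per class and direction, and up to 4 per list by the test statistic. The members and lists were chosen with earlier results of these data known. Alternatives covered the pseudocount, filter, scaling, reference, libraries in the fit, replicate number and each library left out.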

Additional observations from a re-analysis of the deposited data

Results flagged for a closer look

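Among the 4 regrown libraries, 12 of 161 named genes had 1 library far from the other 3, with a gap to the nearest one above Dixon's critical share of the whole range, a limit that chance passes in about 1 in 20 groups. In 14 d replicate 1 this held for Bcl3 (0.865), Mt2 (0.903) and Zc3h13 (0.866), and in 14 d replicate 2 for Ankrd1 (1.0) and Pola2 (0.908). In 21 d replicate 1 it held for Acta2 (0.871), Hspd1 (0.89), Mir3092 (1.0), Orc6 (0.877), Paqr7 (0.914) and Slc27a5 (0.841), and in 21 d replicate 2 for Clock (0.847). The regrown mean of these genes leans on that library. The range was 4.21 on the log2 scale for Mt2 and at most 1.23 for the other 11.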

How the results depend on the processing

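Calls between 12 h and 6 h depended on the processing. Against 1 higher and 7 lower genes, 7 faded and 1 started, a pseudocount of 0.1, a filter of 5 FPKM, voom and the replicate block each gave 0 higher, 0 lower, 0 faded and 0 started (851, 358, 990 and 789 genes at an unadjusted p under 0.05). The 4 libraries alone gave 0 higher and 0 lower, without the block (318 unadjusted) and with it (697). No filter gave 3 higher, 18 lower, 17 faded and 2 started, and all 20 libraries gave 2, 16 and 16 faded. Rescaling to the same FPKM sum gave 0 higher, 2 lower, 2 faded and 0 started, and without mitochondrial genes 0 higher and 0 started. These rescalings moved the median of all genes to 0.18 and -0.10. With the filter of 5 FPKM, 1256 genes were called at 6 h and 745 at 12 h against regrown liver. Undamaged liver as the reference gave 716 at 12 h, 16 faded and 609 persisting. Separate references, chosen after seeing the data, gave 725 at 12 h and 586 persisting with 21 d for 6 h. Leaving out 1 library gave 0 to 5 higher, 0 to 39 lower, 0 to 42 faded, 0 to 1 started, 743 to 1273 called at 12 h and 554 to 904 persisting. The cause was not tested. Replicate numbers follow the submission, and deviations correlated at 0.51 between 6 h and 12 h, the highest of 28 pairs of times (lowest -0.421), so the block is a relevant alternative for this comparison. Of 161 named genes only Arxes2 was called between 12 h and 6 h, so only its call could be lost or reversed. Arxes2 did not reverse. It lost its call under a pseudocount of 0.1, voom, the replicate block, the 4 libraries alone and without either 12 h library. A change of sign in the other named genes was not counted. With all 20 libraries 4 named genes gained a call, and with no filter 2 did. With the filter of 5 FPKM 99 of the named genes were tested.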
